A study of Bombyx mori with 3 samples.

Results

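Bombyxins are the insulin-like peptides of the silkworm, Bombyx mori, and the genes described here are 10 of them, taken by gene identifier from 17072 genes in the deposited tables. Subfamily A gives Bbx-a2 (GeneID_693012), Bbx-a3 (GeneID_100169712), Bbx-a7 (GeneID_100169708) and Bbx-a8 (GeneID_100169709), and subfamily B gives Bbx-b8 (GeneID_100169718) and Bbx-b11 (GeneID_100169656). The others are Bbx-c1 (GeneID_100147698) and Bbx-c2 (GeneID_100147697) of C, Bbx-d1 (GeneID_100169725) of D and Bbx-g1 (GeneID_100169726) of G. All 10 identifiers were found in the table of raw counts and in the table of TPM (a unit of transcript abundance, counts divided by gene length and scaled to a common sum). Each of the 3 libraries was made from brains of wild-type P50 larvae at day 3 of instar 5, the final feeding stage, fed on fresh mulberry leaves. The libraries form 1 group with no treatment and no control group, so genes are compared within the brain and libraries with each other. The labels do not say whether each library stands for its own animals or how many brains entered each, so the spread between them, given as SD with n = 3, may be partly technical.

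A bombyxin is made as a precursor that, like proinsulin, is cut to a B chain and an A chain held together by disulfide bonds. The chain letters are separate from the subfamily letters used here, which mark groups of genes with related sequence. In the silkworm the peptides are made in neurosecretory cells of the brain, are released into the hemolymph from the corpora allata, act through the insulin receptor, and are known for lowering hemolymph sugar and promoting growth of tissues.

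The gene table of the reference assembly names 23 bombyxin genes, all of them in the deposited tables. The 10 described here include every family gene that reached 100 TPM in all 3 libraries, 9 in number, together with Bbx-b11, the lowest gene of the family. Over all genes, 8.62% reached 100 TPM in every library. Because the 10 genes span the extremes of the family, their levels describe these genes and do not stand for the other 13. Related copies of a multigene family may share reads. How the counting treated such reads is not given in the sources used here, and sharing between copies was not measured.

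The libraries held between 17935488 and 23895452 counts. All 9 neuronal markers, among them Elav, Syti and Tau, stood at 1 TPM or more in every library, as did all 4 glial markers. So did 58.1% of all genes, so that threshold does not single out the brain. The neuronal markers summed to 841, 825 and 877 TPM in replicates 1, 2 and 3, below the cuticle and muscle sums that follow. The 6 silk gland markers and the 5 midgut markers stayed under 1 TPM in every library, with Apn1 at no count, and among 5 fat body markers Sp2 alone reached 1 TPM throughout and VG had no count. Markers of cuticle, hemocytes and corpora cardiaca were present and lowest in replicate 1. The summed TPM of the 4 cuticle markers was 1143, 5157 and 3395 in replicates 1, 2 and 3, that of the 3 hemocyte markers was 76.4, 118 and 221, and that of AKH1 and AKH2, peptide hormones of the corpora cardiaca, was 245, 369.8 and 389. All 9 of these genes were lowest in replicate 1. The 4 muscle markers summed to 2822, 6821 and 2718 TPM, a sum carried by A1 and MLC-2, which were highest in replicate 2, while Tm and A2 were highest in replicate 1. Among 5 prothoracic gland markers 3 reached 1 TPM throughout and 4 were lowest in replicate 1, and Jhamt of the corpora allata stayed under 1 TPM.

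Of the 10 bombyxin genes, 9 were at 1 TPM or more in every library. They are the family genes at 100 TPM or more throughout, so that count follows from the set described. Of all 23 family genes 21 were at 1 TPM or more in every library, against 58.1% of all genes. The 9 lay within a narrow range on both scales, while the means of the whole family ran from 0.229 to 379.9 TPM. Their mean level ran from 147 TPM for Bbx-b8 to 379.9 TPM for Bbx-g1, and from 28.0 to 49.2 CPM (counts scaled to 1e+06 reads, here with the TMM method, and not divided by length). Bbx-b11 was nearly without reads. The median gene of the table stood at 6.59 TPM, and Bbx-g1 ranked 348th among all 17072 genes by mean TPM.

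**Figure D1:**
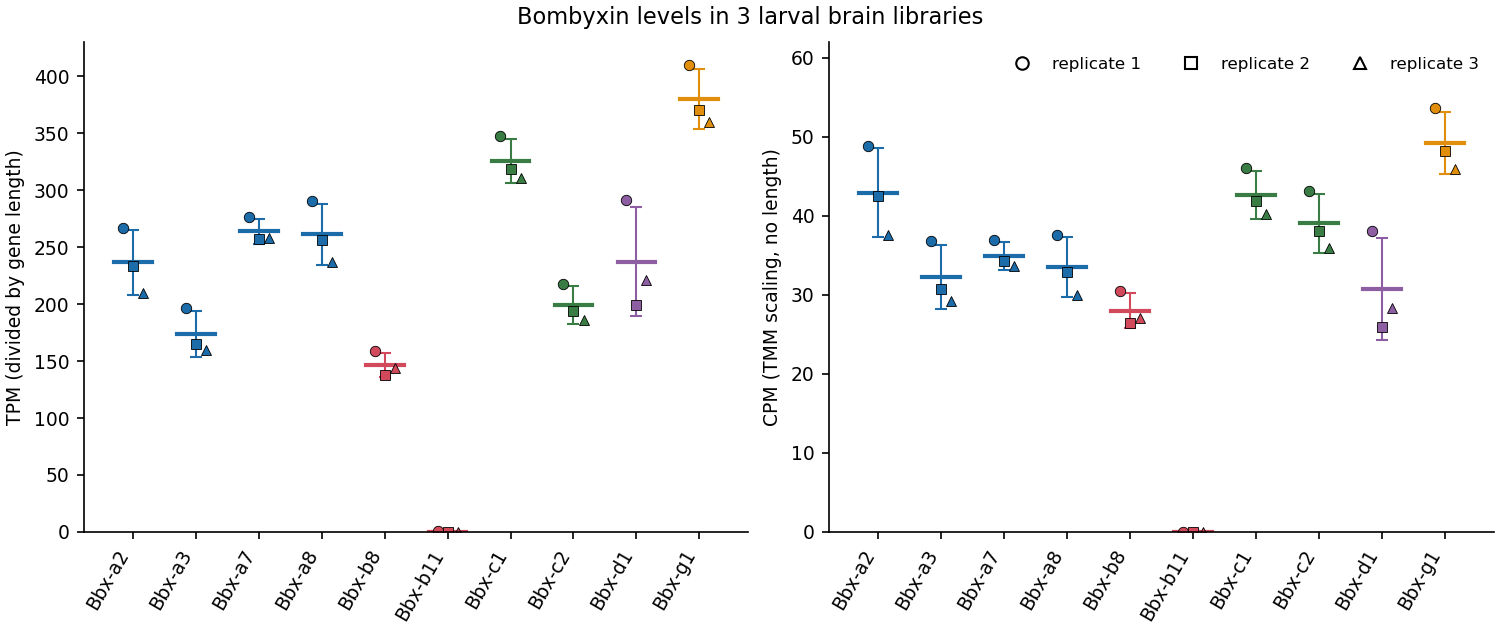
Level of each of the 10 bombyxin genes in TPM (left) and in CPM with TMM scaling (right); points are the 3 libraries, horizontal bars the mean and vertical bars the SD (n = 3), coloured by subfamily. Replicate 1 is the highest point for every gene other than the nearly unread Bbx-b11, and the order of the genes differs between the panels, with Bbx-a2 ranked 6 in TPM and 2 in CPM.

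The 4 A genes described here stood at similar levels, while all 7 A genes of the family ran from 2.37 to 264 TPM. Bbx-a7 measured 277, 258 and 258 TPM in replicates 1, 2 and 3, a mean of 264 ± 10.99 TPM (SD, n = 3). Bbx-a8 measured 291, 256 and 237 TPM, and its mean of 261 ± 26.96 TPM did not differ from that of Bbx-a7 beyond their spread. Their ranges overlapped, and the order of the pair held in 2 of 3 libraries. Bbx-a2 measured 267, 233 and 210 TPM (237 ± 28.4 TPM), and Bbx-a3 was the lowest of the 4 at 197, 165 and 160 TPM (174 ± 20.02 TPM). Every library of Bbx-a3 lay below every library of the other A genes in TPM.

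On CPM the A genes took another order. Bbx-a2 then led them with 48.8, 42.4 and 37.5 CPM (42.9 ± 5.64 CPM), above Bbx-a7 at 34.9 ± 1.79, Bbx-a8 at 33.5 ± 3.83 and Bbx-a3 at 32.2 ± 4.05 CPM. The gene length that the counts and TPM imply is 382 bp for Bbx-a2 and 391 bp for Bbx-a3, against 279 bp for Bbx-a7 and 270 bp for Bbx-a8. TPM thus places the genes with short models higher relative to their counts.

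Among the genes described here B held the widest contrast, which follows from the inclusion of Bbx-b11, the lowest gene of the family. Bbx-b8 measured 159, 138 and 144 TPM (147 ± 10.5 TPM), from 615, 469 and 643 reads, the lowest level among the 9 abundant genes on both scales. Bbx-b11 had 1, 0 and 1 reads in replicates 1, 2 and 3, listed as 0.367, 0 and 0.319 TPM. The count of 0 in replicate 2 allows up to 3 counts, which for this gene is 1.26 TPM, a limit that covers counting error only. Summed over the libraries and divided by length, Bbx-b8 had 606 times the level of Bbx-b11, with an exact 95% interval of 167 to 5006 for counting error. Whether reads of Bbx-b11 were assigned to a related copy was not tested.

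Both C genes and the single D and G genes were abundant. Bbx-g1 was the highest bombyxin on either scale, at 410, 370 and 359.5 TPM (379.9 ± 26.5 TPM) and 49.2 ± 3.96 CPM. Bbx-c1 followed in TPM with 348, 318 and 311 TPM (326 ± 19.6 TPM), and Bbx-c2 measured 218, 194 and 186 TPM (199 ± 16.8 TPM). The C genes were far apart in TPM and close in CPM, where Bbx-c1 stood at 42.7 ± 3.02 and Bbx-c2 at 39.0 ± 3.72 CPM with overlapping ranges. Their implied lengths are 276 and 413 bp. Bbx-d1 measured 291, 199 and 222 TPM (237 ± 47.8 TPM), the widest spread between libraries among the 9 abundant genes.

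In the order of mean TPM, Bbx-g1 lay above Bbx-c1 and Bbx-c1 above Bbx-a7 with no overlap between their libraries. Bbx-a7, Bbx-a8, Bbx-d1, Bbx-a2, Bbx-c2 and Bbx-a3 followed, and each neighbouring pair among these 6 overlapped. Bbx-a3 then lay above Bbx-b8, and Bbx-b8 above Bbx-b11, without overlap. Of the 45 pairs among the 10 genes, 36 had ranges that did not overlap in TPM and 25 in CPM. The order of a pair was the same in all 3 libraries for 41 pairs in TPM and 39 in CPM. In CPM the only neighbours in the order of means without overlap were Bbx-b8 and Bbx-b11.

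The gene models behind the TPM fell into a short and a long class. Of the 10 models, 6 were 270 to 282 bp long, all multiples of 3 as a coding length is (Bbx-a7, Bbx-a8, Bbx-b11, Bbx-c1, Bbx-d1 and Bbx-g1). The other 4 (Bbx-a2, Bbx-a3, Bbx-b8 and Bbx-c2) were 382 to 413 bp long. Of these, Bbx-b8 at 402 bp was also a multiple of 3, so that trait does not mark the short class alone. Apart from Bbx-b11, the 5 genes with short models ranged from 237 to 379.9 TPM and the 4 with long models from 147 to 237 TPM, so the means of the classes did not overlap in TPM, by a margin of less than 1 SD. In CPM they ran from 30.8 to 49.2 and from 28.0 to 42.9 and overlapped widely. Reads that fall outside a short model would not be counted for its gene, and how many there were was not tested.

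Subfamily levels, taken as the mean over members in each library, put G highest and B lowest on both scales. In TPM, G stood at 379.9 ± 26.5, C at 262 ± 18.2, D at 237 ± 47.8, A at 234 ± 21.3 and B at 73.5 ± 5.35 (SD, n = 3). In CPM the order was G (49.2 ± 3.96), C (40.8 ± 3.37), A (35.9 ± 3.80), D (30.8 ± 6.44) and B (14.0 ± 1.11). A and D thus changed places between the scales. The level of B is the mean of an abundant gene and a nearly unread one, and without Bbx-b11 it was 147 TPM and 28.0 CPM. It was then still the lowest of the 5 in every library in TPM, but in CPM it overlapped D and lay above it in replicate 2.

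**Figure D2:**
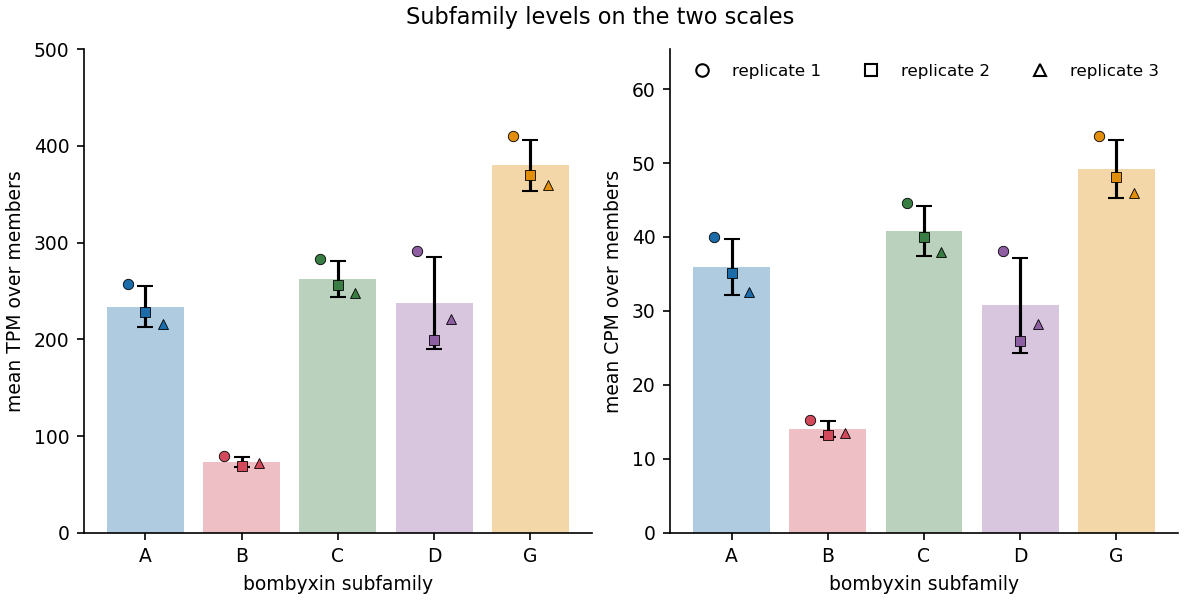
Level of the A, B, C, D and G subfamilies as the mean over their members in TPM (left) and CPM with TMM scaling (right); bars are means over 3 libraries, error bars the SD and points the libraries. G is highest and B lowest on both scales, while D at 237 TPM lies level with A at 234 TPM and below A in CPM.

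The gaps among A, C and G varied little between libraries. On the log2(TPM + 1) scale, C lay below G by -0.533, -0.531 and -0.532 in replicates 1, 2 and 3, and A below G by -0.70 ± 0.03 (SD, n = 3). A lay above B by 1.66 ± 0.07, a gap that fell to 0.67 without Bbx-b11. C lay above A in 3 of 3 libraries by a small margin, with A minus C at -0.17 ± 0.03. Gaps to D varied most. A minus D was -0.18, 0.19 and -0.04 in the 3 libraries, so no order of A and D held in TPM for these members. In CPM A was above D in 3 of 3 libraries by 0.23, and with all 7 A genes of the family it was below D in 3 of 3 libraries, at -0.66 in TPM. C minus D was 0.16 ± 0.20 in TPM, with C higher in 2 of 3 libraries, and 0.41 ± 0.19 in CPM with C higher in 3 of 3. All 10 pairs of subfamilies were compared with an exact two-sided sign-flip permutation test over libraries. With 3 libraries that exact test cannot go below p = 0.25, which 8 pairs reached in TPM (adjusted p = 0.312 over the 10 pairs), so no difference between subfamilies could pass a threshold.

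The split of the reads among subfamilies was nearly constant. Of the 7486, 5690 and 7317 reads on the 10 genes in replicates 1, 2 and 3, A took 43.1%, 43.7% and 42.4%, C took 24.0%, 24.9% and 24.7%, G took 14.4%, 15.0% and 14.9%, and B took 8.23%, 8.24% and 8.80%. For these 4 subfamilies the 95% Wilson intervals of the 3 libraries all overlapped. D was the exception. Its share reached 10.2% in replicate 1 (interval 9.58 to 10.95%), against 8.08% in replicate 2 (7.40 to 8.82%) and 9.20% in replicate 3 (8.56 to 9.88%), and the intervals of replicates 1 and 2 did not meet. Reads without molecular identifiers are not independent molecules, so these intervals cover counting error only.

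All 9 abundant bombyxins were highest in replicate 1, in TPM and in CPM. Among all genes averaging 10 or more counts, replicate 1 was the highest library for 36.9% in TPM and 40.9% in CPM. Bbx-b11, with 2 reads in all, cannot be ranked. The excess was small for most genes: the TPM of replicate 1 was 1.07 times the mean of the other libraries for Bbx-a7, 1.11 for Bbx-c1, 1.12 for Bbx-g1 and for Bbx-b8, 1.15 for Bbx-c2, 1.18 for Bbx-a8, 1.20 for Bbx-a2, 1.21 for Bbx-a3 and 1.38 for Bbx-d1. Replicate 1 stayed highest for all 9 with TMM scaling, with library totals alone and with DESeq2 size factors. Summed over the 10 genes, the level was 372, 321 and 308 CPM in replicates 1, 2 and 3. In bulk tissue, fewer cells that make a peptide and less RNA per cell cannot be told apart. Markers of brain neurosecretory cells summed to 564, 506 and 499 TPM in replicates 1, 2 and 3. Of these 4 genes Crz and EH were highest in replicate 1. PTTH was nearly equal in replicates 1 and 2, at 136.2 and 136.0 TPM, and PBAN was lowest in replicate 1. The cuticle, hemocyte and corpora cardiaca markers given above were lowest in replicate 1. The muscle sum was not, at 2822, 6821 and 2718 TPM in replicates 1, 2 and 3. Among the muscle markers Tm and A2 were highest in replicate 1 and A1 was lowest there. The part of any of these in the difference was not tested.

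**Figure D3:**
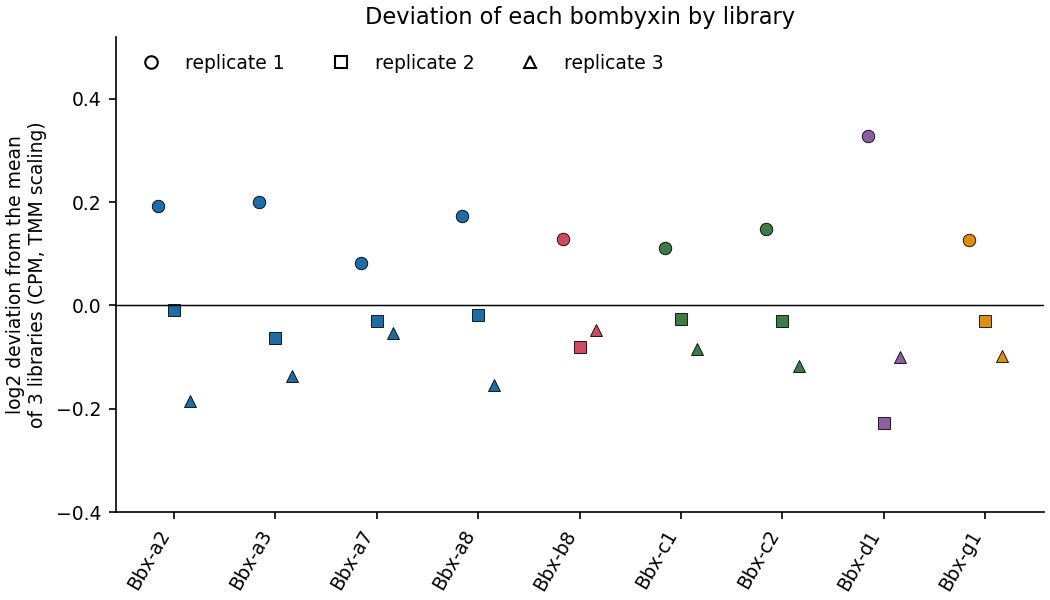
Deviation of each bombyxin in each library from its geometric mean over the 3 libraries, in log2 CPM with TMM scaling; Bbx-b11 is left out because it had 2 reads in all. Replicate 1 lies above 0 for all 9 genes, by 0.08 for Bbx-a7 to 0.33 for Bbx-d1, and the other libraries lie below 0.

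The differences between libraries were larger than the sampling of reads gives for most of these genes, as they were for most genes of the brain. The test used sets them against counting error alone and treats reads as independent molecules, so it does not measure variation between animals. A chi-square test of homogeneity of the counts over the 3 libraries, adjusted by the Benjamini-Hochberg method over the 10664 genes averaging 10 or more counts, called 58.9% of those genes. It called 8 of the 9 abundant bombyxins. Bbx-a7 did not pass, and Bbx-b11 was under the count minimum. The test finds smaller differences in genes with more counts, and the 9 averaged 576 to 1009 counts. Depth was not matched here or where other lists are set against the share of all genes. With totals scaled by TMM or by DESeq2 size factors 7 passed, against 56.8% of genes on either scaling, and Bbx-b8 did not. Between replicates 2 and 3 alone, the same chi-square test called 19.2% of genes and 0 of the 9 bombyxins, with 1 of the 9 under an unadjusted p of 0.05. With replicate 1 kept and replicate 2 or replicate 3 left out, 9 and 8 were called, against 49.5% and 49.2% of genes. The spread given by edgeR as the biological coefficient of variation ran from 0.115 for Bbx-c1 to 0.177 for Bbx-d1. It was below the trend for genes of like level in 8 of the 9, Bbx-d1 being the exception, while 88.4% of all genes were below it.

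Genes listed for the insulin pathway were expressed at moderate levels, and most were lowest in replicate 1. Of the 35 names listed for the pathway, 8 were matched in the tables, and all 8 reached 1 TPM in every library. InR, the insulin receptor, measured 42.3, 50.6 and 50.1 TPM (47.7 ± 4.64 TPM) and was lowest in replicate 1. LOC100174852, whose synonym S6K names the ribosomal protein S6 kinase, stood at 72.3 ± 0.124 TPM and was nearly equal in the 3 libraries. LOC100529235, with the synonym foxO for the transcription factor that insulin signalling restrains, was at 48.3 ± 7.33 TPM, and TOR2, a target-of-rapamycin kinase, at 39.5 ± 1.63 TPM. Of the 8, 6 were lowest and 2 highest in replicate 1, against 43.1% and 36.9% of all genes averaging 10 or more counts. The chi-square test called 4 of the 8, against 58.9% of all genes tested. The list median was 38.9 TPM against 31.9 TPM for all genes averaging 10 or more counts. The 8 also include Igflp, an insulin-like growth factor-like peptide and not a gene that carries the signal onward. Igflp measured 7.50, 4.29 and 6.91 TPM, highest in replicate 1 and under every bombyxin described here other than Bbx-b11. Of the names listed for prohormone processing, dimm alone was matched, a factor of peptide-secreting cells in Drosophila, at 7.95 ± 1.81 TPM.

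Other brain peptide hormones differed in their pattern over the libraries. Of 26 matched genes, 20 were at 1 TPM or more throughout, while 6, AKH3 and burs among them, stayed below. Of the 26, 16 were highest in replicate 1, against 36.9% of all genes averaging 10 or more counts. The 16 include PDF and ETH, which average fewer counts than that, so the sets compared are not alike. The chi-square test called 19 of the 20 that met the count minimum, against 58.9% of all genes tested. Crz, which encodes corazonin, was the highest of them at 304, 270 and 248 TPM, above every A bombyxin in replicates 1 and 2 and below Bbx-a7 in replicate 3. AKH1 measured 119, 189 and 204 TPM and AKH2 126, 181 and 184 TPM, both lowest in replicate 1. MS, which encodes myosuppressin, measured 189, 140 and 160 TPM and was highest there. By the root mean square difference in log2 deviation over the 3 libraries, the genes most like the summed bombyxins among 20 peptide genes averaging 50 or more counts were sNPF (0.030), Crz (0.037) and CCAP (0.051). The summed bombyxins deviated by 0.16, -0.05 and -0.11 in replicates 1, 2 and 3, and Crz by 0.17, -0.01 and -0.16. With 3 libraries such likeness is a description only.

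The other 13 bombyxin genes had lower mean levels than the 9 abundant ones, as the set described implies, and all stood above Bbx-b11. Bbx-e1 (126 ± 27.7 TPM) and Bbx-f1 (103 ± 15.4 TPM), the single genes of their subfamilies, were the highest of these, and Bbx-a10 (2.37 ± 1.24 TPM) and Bbx-a5 (3.46 ± 0.316 TPM) the lowest. Of the 13, 12 reached 1 TPM in every library, against 58.1% of all genes. In TPM 6 of the 13 were highest in replicate 1, against 36.9% of all genes averaging 10 or more counts. Those 6 all average 10 or more counts. Bbx-a10 and Bbx-a5 average fewer counts than that, so their order over libraries is poorly measured. Over the whole family the 7 A genes had a median of 174 TPM, from 2.37 to 264, and the 10 B genes a median of 35.3 TPM, from 0.229 to 147. Bbx-b8 was thus the highest and Bbx-b11 the lowest of the B genes. The 10 genes described here took 77.4 ± 0.0887% of all bombyxin reads (SD, n = 3).

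In the reference assembly 22 of the 23 bombyxin genes lie in 1 run on a single chromosome, with 5 other genes among them, and Bbx-e1 lies apart. The first 5 genes of the run in the direction of the assembly, Bbx-d1, Bbx-g1, Bbx-c2, Bbx-b8 and Bbx-a8, all belong to the abundant set, with 147 to 379.9 TPM. Next to them, Bbx-b7 stood at 27.3 ± 3.92 TPM between Bbx-a8 and Bbx-a7, which were 9.57 and 9.67 times as high. Bbx-b11 lies between Bbx-a5 and Bbx-a4. At the far end, Bbx-a3 and Bbx-a2 flank Bbx-b2 (16.7 ± 2.09 TPM) and were 10.4 and 14.2 times as high. Across the run, 12 neighbouring pairs join an A gene and a B gene. The A gene was higher in 3 of 3 libraries in 11 of these pairs, and in the pair of Bbx-a10 and Bbx-b6 (25.2 ± 1.43 TPM) the B gene was. The 4 A genes described here lay above every B gene of the family in each of the 3 libraries. Pairs with them thus do not set neighbours apart from other pairs of an A and a B gene. The share over all such pairs was not taken. Neighbouring pairs share genes and are not independent, and the B genes named here beyond Bbx-b8 and Bbx-b11 were chosen after their values were seen.

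**Figure D4:**
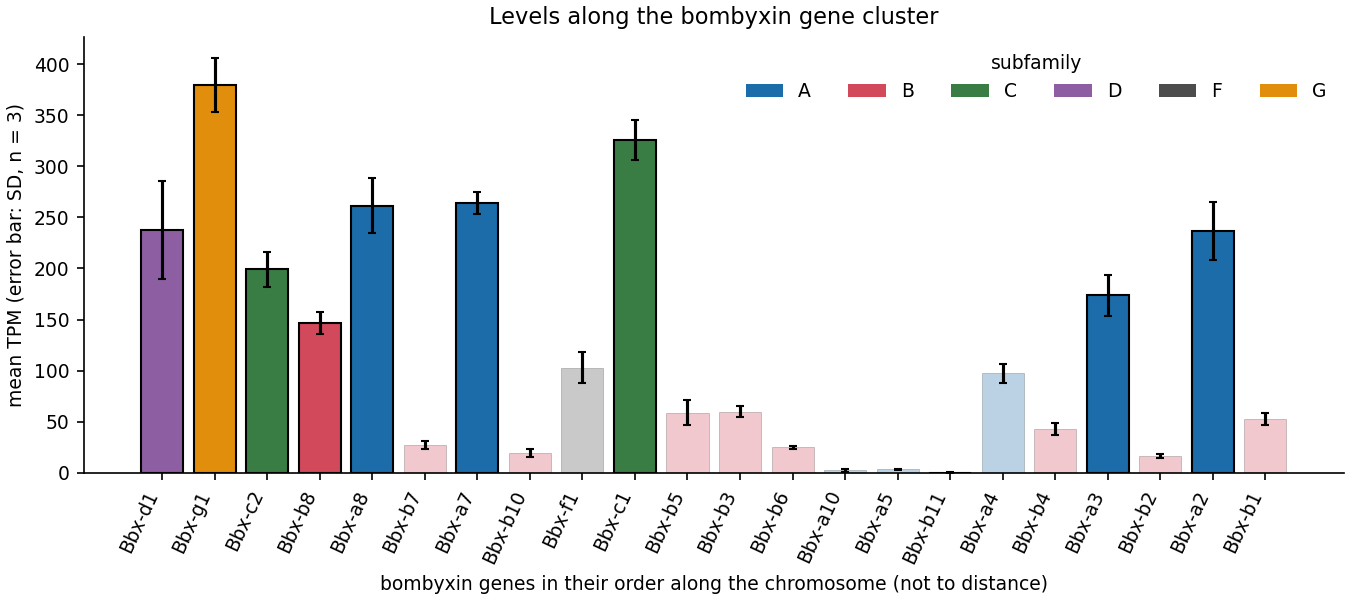
Mean TPM of the 22 bombyxin genes of the run in their order along the chromosome (not to distance), with the SD over 3 libraries as error bars; solid outlined bars are the 10 genes described here and pale bars the other genes. Abundant genes of subfamilies D, G, C, B and A stand together at the left, and pale B bars stand next to taller A bars along most of the run.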

How the data were processed

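Raw counts per gene were deposited by the authors as whole numbers, 1 column for each library per the file headers. The TPM table was deposited by the authors with the same 17072 genes. Trim Galore, HISAT2 and featureCounts appear in the submitters' processing notes. Not given in the sources used here are the genome build, the annotation, the strand setting and the treatment of multi-mapped reads.

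Names, gene lengths and gene order came from a RefSeq gene table (assembly ASM3026992v2). For all 23 bombyxins the length implied by counts over TPM was proportional to the table's gene length within a relative tolerance of 1e-06. CPM used TMM factors from edgeR 4.0.16, and spread was estimated with an intercept-only design. Size factors and dispersions from DESeq2 1.42.0 served as alternatives. R 4.3.3, Python 3.11.15, NumPy 2.4.6, pandas 2.3.3, SciPy 1.17.1 and matplotlib 3.10.9 were used. The chi-square test and the spread estimate were tested on simulated data. Adjusted p-values use a threshold of 0.05, and log2 values of subfamily levels a pseudocount of 1.

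The members and lists were chosen with earlier results of these data known. All 10 members are named, with the 2 highest and 2 lowest other bombyxins, the 4 highest genes of each pathway list with up to 2 under 1 TPM, and the 3 most alike in pattern; other genes were chosen after their values were seen. In the lists serpin-1, S and a P450 were left out because only a synonym matched or the role differed. That was a choice for these genes and not a rule. Others matched only by a synonym were kept, such as LOC100174852 (S6K) and LOC100529235 (foxO). Planned searches of promoters and proteins were not run, as no sequences were used here.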

Additional observations from a re-analysis of the deposited data

How the results depend on the processing

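Of 190 alternative values, 4 gaps between subfamilies reversed and 13 levels, shares or counts moved. The other 173 kept their direction (gaps) or lay near the reported value (levels, shares and counts). Some of the 173 could not change. The median equals the mean for B, C, D and G, which have 1 or 2 members each. All C, D and G genes of the family are members, so their levels and gaps stay the same with all family genes. The count at 1 TPM was also fixed, as its 9 genes stood at 100 TPM or more throughout. Gaps that kept their direction still changed in size: A minus B fell to 0.67 without Bbx-b11, C minus G was -0.26 on CPM, and with all family genes A minus C was -0.82 and A minus D -0.66. The gap A minus D on log2(TPM + 1), which was -0.01, reversed to 0.23 on CPM with TMM scaling and to 0.069 with the median over members, and ranged from -0.11 to 0.078 when single libraries were left out. Alternatives chosen after seeing the data moved subfamily levels by their construction: with all family genes A fell to 148 TPM and 23.3 CPM and B to 45.0 TPM and 7.44 CPM, and without Bbx-b11 B rose to 147 TPM and 28.0 CPM. As shares of summed TPM instead of counts, which divides by length, A took 42.1%, B 6.62%, C 23.6%, D 10.6% and G 17.1%. Leaving out single libraries gave 0 to 9 bombyxins and 2063 to 5298 genes called by the chi-square test, against 8 and 6281. As shares of the genes tested these were 19.2% to 49.5%, against 58.9%. The lowest values came without replicate 1, and the cause was not tested. A sum over members was not run as a level because the subfamilies differ in size. No paired analysis was possible because the libraries form a single group, so no groups share replicate numbers; gaps between subfamilies were taken within each library. Depth limits Bbx-b11, Bbx-a10 and Bbx-a5 and the peptide genes under 1 TPM.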
